A study of Rattus norvegicus with 6 samples.

Results

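Glucocorticoid hormones act on cells in steps that separate genes carry out, and the genes described here stand for those steps: Hsd11b1, an enzyme that makes the active hormone, Nr3c1 and Nr3c2, the receptors, Fkbp5, a co-chaperone of the receptor, and Tsc22d3, Zbtb16 and Sgk1, known targets of the receptor. These 7 genes were chosen by name, with earlier results of these data known. Rows for 6 of them were analysed among the 30560 genes of the deposited table. Tsc22d3 was not analysed here. Of the 6, 5 had reads in at least 1 library and 4 averaged 1 FPKM or more and were tested. FPKM are fragments scaled to gene length and to the library total, so levels can be set side by side between genes.

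The cells were primary fibroblasts from the heart ventricles of newborn Sprague-Dawley rats aged 1 to 2 days, enriched by letting them attach to the dish and deprived of serum overnight. They were transfected by a lipid reagent with 50 nM of a miR-142-3p antagomiR or of the control oligonucleotide (NC). AntagomiRs are antisense oligonucleotides that bind and block a mature microRNA. Each group had 3 libraries of polyadenylated RNA. The labels named no separate isolations. The spread behind each p-value is that between these libraries and may be technical. No added glucocorticoid was named in the labels.

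Inside cells, 11beta-hydroxysteroid dehydrogenase type 1, the product of Hsd11b1, turns inert cortisone or 11-dehydrocorticosterone into the active hormone, which in the rat is corticosterone. The hormone binds the glucocorticoid receptor, which waits in the cytoplasm in a complex with heat shock proteins and immunophilins, moves to the nucleus and switches genes on or off. The mineralocorticoid receptor binds the same hormone, and in the heart it is studied for its part in fibrosis.

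The antagomiR is directed against the 3p strand of miR-142, a microRNA known mainly from blood cells. The mature sequence is shown because it is the molecule that the treatment is meant to block, and the sequence of the other strand is given for comparison. Both are from RefSeq in the build GRCr8, on the plus strand of chromosome 10, at chr10:73055155-73055177 for the 3p strand and chr10:73055119-73055139 for the 5p strand. Capitals mark the seed, bases 2 to 8 from the 5′ end, which pairs with target transcripts. The 2 strands have different seeds.
rno-miR-142-3p: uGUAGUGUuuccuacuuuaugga
rno-miR-142-5p: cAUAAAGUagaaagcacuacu
Libraries of polyadenylated RNA do not measure mature microRNAs, and the level of miR-142-3p was not analysed here.

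The libraries held between 22215475 and 24622667 fragments in the antagomiR group and between 19472409 and 24248843 in the NC group. At these depths, 3 fragments on a gene of 1 kb correspond to 0.122 to 0.154 FPKM, which is a floor for counting error alone. NC replicate 3 stood apart from the other NC libraries, with a chi-square per degree of freedom of 35.5 and 26.5 against them, while NC replicates 1 and 2 gave 7.46 and the antagomiR pairs 3.84 to 6.72. It also had the highest NC value of 18 of 18 leukocyte markers. Their summed level was 1147, 1030 and 1086 FPKM in antagomiR replicates 1 to 3, against 162, 236 and 807 FPKM in NC replicates 1 to 3. None of these markers was at 0, and Lyz2 (lysozyme), the most abundant, had 566, 484 and 520 FPKM in the antagomiR libraries against 62.7, 104.8 and 390 FPKM in the NC libraries. Cd68, Mrc1, C1qa, C1qb, C1qc, Cx3cr1, Cd53 and Cd74 were instead higher in NC replicate 3 than in any antagomiR library. The antagomiR mean was 0.944, 0.976 and 0.766 times the NC mean for Mrc1, C1qb and Cd74. By limma 7 of the 18 markers rose and 0 fell, where 17.5% of all tested genes rose and 9.21% fell. Without NC replicate 3 the count for the markers was 17 and 0, where 3185 of the 12024 tested genes rose and 1677 fell. The labelled cell type was borne out by abundant fibroblast markers, whose summed level was 15520 to 15860 FPKM in antagomiR libraries and 15960 to 16270 FPKM in NC libraries, led by the collagen gene Col1a1 at 4161 ± 186 FPKM in antagomiR cells and 4609 ± 103 FPKM in NC cells (SD, n = 3 each). A few abundant matrix genes set this sum. Of the 14 fibroblast markers 7 rose and 3 fell by limma, with Pdgfra, a growth factor receptor, at 27.5 ± 0.149 FPKM in antagomiR cells and 8.54 ± 1.20 FPKM in NC cells. Summed markers of cardiomyocytes, led by Tnnt2, were 343 to 407 FPKM in antagomiR libraries and 421 to 466 FPKM in NC libraries. Of the 8 tested, 2 rose (Myh7 and Actc1) and 1 fell (Tnnt2, at 254 ± 25.1 FPKM in antagomiR cells and 339 ± 21.6 FPKM in NC cells). Those of mural cells, led by Mcam, were 109.7 to 116 FPKM in antagomiR libraries and 209.7 to 228 FPKM in NC libraries. Mcam set much of this sum, at 75.0 ± 3.24 FPKM in antagomiR cells and 161 ± 7.97 FPKM in NC cells. Of the 5 mural markers tested, 0 rose and 4 fell by limma. Kcnj8 and Abcc9, which were not tested, were higher in antagomiR cells, at 0.309 and 0.403 FPKM against 0.098 and 0.219 FPKM in NC cells. Mesothelial markers, led by Upk3b, summed to 11.4 to 13.4 FPKM in antagomiR libraries and 16.03 to 17.6 FPKM in NC libraries. Of the 3 tested, 0 rose and 2 fell by limma (Upk3b and Msln). Wt1 was not called and was higher in antagomiR cells, at 3.75 ± 0.253 FPKM against 2.94 ± 0.225 FPKM in NC cells. Upk1b, which was not tested, was also higher on average, at 0.626 against 0.495 FPKM, with overlapping ranges. Endothelial markers, led by Tek, were low in both groups, at 4.596 to 5.26 FPKM in antagomiR libraries and 2.91 to 3.61 FPKM in NC libraries. The summed adipocyte markers overlapped, at 4.91 to 10.1 FPKM in antagomiR libraries and 3.39 to 44.7 FPKM in NC libraries. Fabp4, which was highest in NC replicate 3, set nearly all of this sum. Adipoq was at 0 in every library, and Plin1, Cidec and Lep averaged 0.0145, 0.0168 and 0.0461 FPKM over all libraries. In bulk RNA, fewer cells of a type and less RNA per cell cannot be told apart.

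The comparison asked which of the 4 tested genes differed between antagomiR and NC cells. Hsd11b1, Nr3c1 and Fkbp5 rose by limma at an adjusted p under 0.05, none fell, and Sgk1 was not called. Among the 12024 tested genes of the table, 17.5% rose and 9.21% fell by the same rule. The genes and the lists were chosen with earlier results of these data known. Their counts beside these shares are therefore a description and do not test for an excess. In 3 of the 4 tested genes the ranges of the groups did not overlap, as was so for 44.6% of all tested genes. Log2 fold changes are antagomiR minus NC on the log2(FPKM + 1) scale, which understates changes of low genes. The median over all tested genes was 0.06, and quantile normalization moved it by -0.11. Of the genes called, 65.6% rose (2109 of 3216) as reported, 51.5% with median-ratio scaling and 43.1% with quantile normalization, and with either of these scalings Hsd11b1 was the only one of the 4 genes called. Without NC replicate 3 the calls numbered 4862 over all genes and 4 among these 4, and without antagomiR replicate 1, 2 or 3 or NC replicate 2 they numbered 2033, 2000, 1883 and 2148 over all genes, with Hsd11b1 the only one of the 4 genes called each time.

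**Figure D1:**
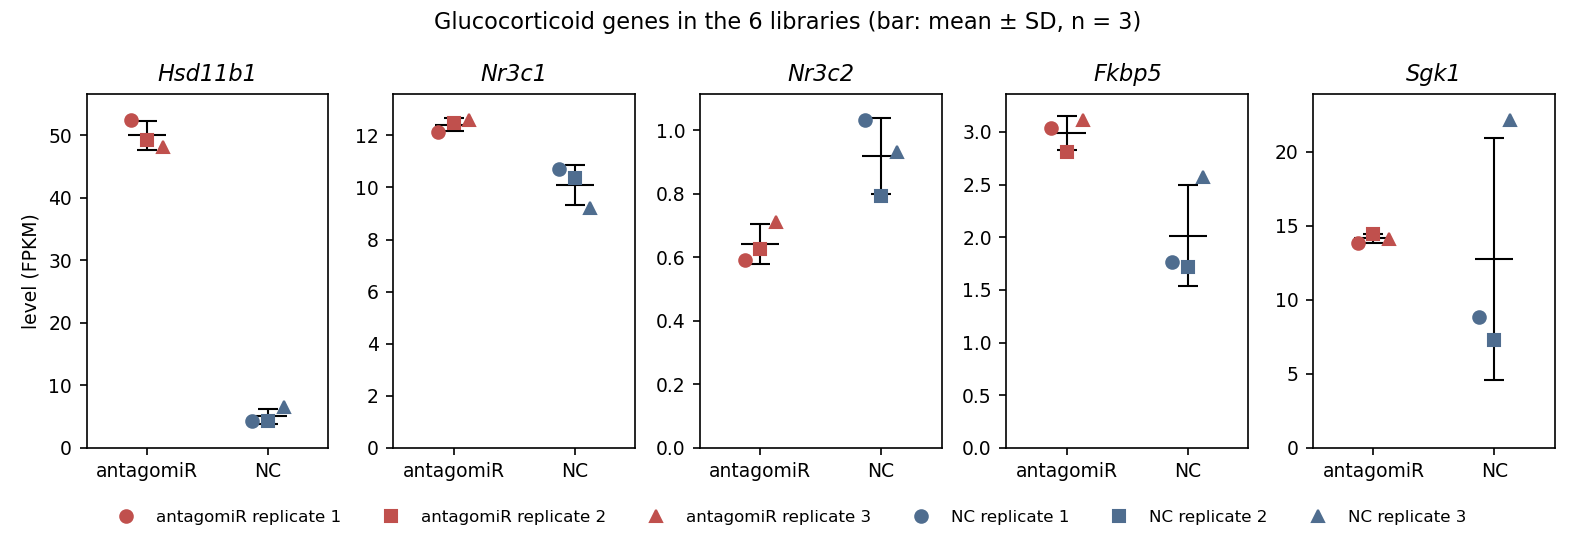
Level in FPKM (vertical axis, a separate scale for each gene) of the 5 genes with reads, in the 3 antagomiR and the 3 NC libraries. Points are libraries, with a shape for each replicate number, and the bar is the mean ± SD. Hsd11b1 lies between 48.1 and 52.5 FPKM in antagomiR libraries and between 4.26 and 6.48 in NC libraries, and for Sgk1 NC replicate 3 at 22.2 FPKM lies above every antagomiR library.

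The activating enzyme showed the largest difference. Hsd11b1 (ENSRNOG00000005861, at chr13:104728539-104788687 in mRatBN7.2) had 52.5, 49.3 and 48.1 FPKM in antagomiR replicates 1 to 3, against 4.34, 4.26 and 6.48 FPKM in NC replicates 1 to 3. Every antagomiR library was far above every NC library, and NC replicate 3 was the highest of the controls. The means were 50.0 ± 2.26 FPKM in antagomiR cells and 5.03 ± 1.26 FPKM in NC cells (SD, n = 3 each), a ratio of 9.94. These levels rested on 2359, 2456 and 2225 fragments in the antagomiR libraries and 171, 209 and 258 in the NC libraries, so counting error was small. The log2 fold change was 3.10 ± 0.14 (standard error, 95% interval 2.78 to 3.42, limma adjusted p = 2.74e-05). Counted down from the largest rise, it ranked 32 among the 12024 tested genes. The call held in each of the 18 alternatives run, with log2 fold changes from 3.01 to 3.35 and adjusted p from 1.03e-07 to 0.000568.

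NC replicate 3, which had the most leukocyte marker RNA of the controls, had 1.51 times the Hsd11b1 level of the mean of NC replicates 1 and 2. Over that mean the antagomiR libraries averaged 11.6 times. The part of the leukocyte markers in the Hsd11b1 difference was not tested.

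**Figure D2:**
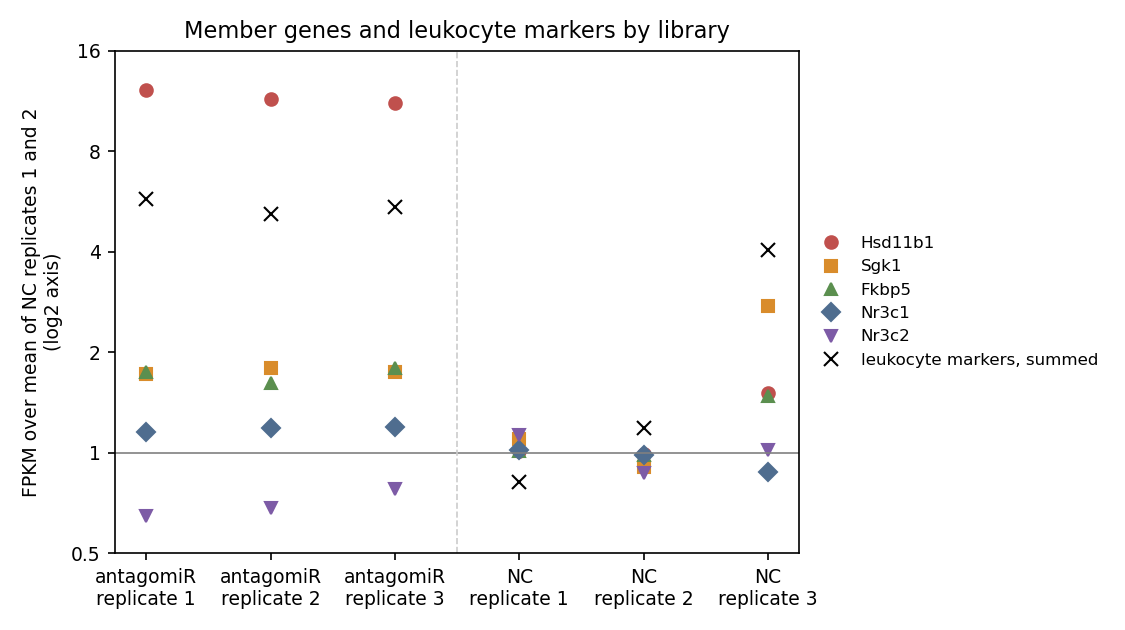
Each gene's FPKM, and the summed FPKM of 18 leukocyte markers, divided by the mean of NC replicates 1 and 2 (vertical axis, log2 scale), in each library (horizontal axis). The antagomiR libraries are left of the dashed line. NC replicate 3 stands above the line at 1 for the leukocyte markers, Sgk1, Hsd11b1 and Fkbp5, and below it for Nr3c1.

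A list of 15 other genes that make, inactivate, reduce or carry steroids was described beside it. Of the 14 names analysed, 7 were tested, 3 rose, 0 fell and 4 were not called, against 17.5% and 9.21% of all tested genes, with a median log2 fold change of 0.33 against 0.06 over all tested genes. Quantile normalization and median-ratio scaling also gave counts of 3 and 0, and without NC replicate 3 the count was 5 and 0. Over all 12024 tested genes these settings gave 1413 and 1869, 1576 and 1484, and 3185 and 1677 that rose and fell. H6pd, hexose-6-phosphate dehydrogenase, supplies the NADPH that 11beta-hydroxysteroid dehydrogenase type 1 uses in the endoplasmic reticulum. It had 7.64, 8.84 and 7.74 FPKM in antagomiR libraries against 3.62, 3.98 and 5.04 FPKM in NC libraries, with no overlap and with the highest NC value again in replicate 3. Its log2 fold change was 0.81 ± 0.11 (standard error, limma adjusted p = 0.00253).

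Abcb1b, which encodes a P-glycoprotein that pumps steroids and many drugs out of cells, averaged 51.0 ± 2.79 FPKM in antagomiR cells and 9.70 ± 1.75 FPKM in NC cells (log2 fold change 2.29, limma adjusted p = 4.46e-05). A second row named Abcb1b has a span that contains this one, so how reads were split between them is uncertain. The second row averaged under 1 FPKM and was not tested. That row had 0.456 ± 0.0300 FPKM in antagomiR cells and 0.325 ± 0.0635 FPKM in NC cells. Star, which carries cholesterol into mitochondria for steroid synthesis, averaged 1.63 ± 0.226 FPKM in antagomiR cells and 0.615 ± 0.0903 FPKM in NC cells (log2 fold change 0.70, limma adjusted p = 0.0037). Its NC values lay under 1 FPKM, so Star was tested, and counted among the genes that rose, only through its high antagomiR values.

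Hsd11b2 encodes the opposing enzyme, which inactivates the hormone in mineralocorticoid target tissues. It was scarce, at 0.169, 0.131 and 0.164 FPKM in antagomiR libraries against 0.110, 0.133 and 0.163 FPKM in NC libraries, and it was not tested. Its ranges overlapped between the groups. Por, an electron donor for steroid-synthesising enzymes of the cytochrome P450 family, was not called at 28.3 ± 1.19 FPKM in antagomiR cells and 25.0 ± 4.73 FPKM in NC cells (log2 fold change 0.18, limma adjusted p = 0.306), but was without NC replicate 3 (0.33, adjusted p = 0.00292).

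Of the receptors, the glucocorticoid receptor was the more abundant and was slightly higher in antagomiR cells. Nr3c1 (ENSRNOG00000014096, at chr18:31271681-31393375 in mRatBN7.2) had 12.1, 12.5 and 12.6 FPKM in antagomiR libraries against 10.7, 10.4 and 9.22 FPKM in NC libraries. All 3 antagomiR values lay above all 3 NC values, and here NC replicate 3 was the lowest library of all. The means were 12.4 ± 0.251 FPKM in antagomiR cells and 10.1 ± 0.770 FPKM in NC cells (SD, n = 3 each), a ratio of 1.23. Its log2 fold change was 0.28 ± 0.07 (standard error, 95% interval 0.11 to 0.44, limma adjusted p = 0.024).

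The Nr3c1 call depended on the setting and was made in 11 of 18 alternatives, with adjusted p from 0.0115 to 0.131. Leaving out antagomiR replicate 1, 2 or 3 or NC replicate 2 ended it, at log2 fold changes of 0.29, 0.27, 0.26 and 0.29 and limma adjusted p of 0.0682, 0.0858, 0.096 and 0.0596. With quantile normalization the log2 fold change was 0.16 (adjusted p = 0.131), and with median-ratio scaling it was 0.21 (adjusted p = 0.0612).

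The mineralocorticoid receptor was scarce and lower in antagomiR cells. Nr3c2 (ENSRNOG00000034007, at chr19:30715648-31059885) had 0.590, 0.625 and 0.712 FPKM in antagomiR libraries against 1.03, 0.793 and 0.932 FPKM in NC libraries, from 75, 88 and 93 fragments in antagomiR libraries against 115, 110 and 105 in NC libraries. The ranges did not overlap. The means were 0.642 ± 0.0625 FPKM in antagomiR cells and 0.919 ± 0.120 FPKM in NC cells (SD, n = 3 each), a ratio of 0.699. Its mean over the 6 libraries was under 1 FPKM, so it was outside the reported test. With no filter the log2 fold change was -0.22 (limma adjusted p = 0.096). On recovered fragment counts, with a filter of 0.1 FPKM, a test chosen after seeing the data, it was -0.50 ± 0.16 (standard error, 95% interval -0.86 to -0.13, limma voom adjusted p = 0.0511). Neither fit passed the threshold.

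The ratio of Nr3c1 to Nr3c2 was taken within each library, on levels per length. It was 20.5, 20 and 17.7 in antagomiR libraries against 10.3, 13.1 and 9.89 in NC libraries. Every antagomiR library was above every NC library, with means of 19.4 ± 1.5 and 11.1 ± 1.72 (SD, n = 3 each). An exact two-sided permutation test gave p = 0.1, the smallest that 3 against 3 libraries allow. The separation of Nr3c1 and of Nr3c2 between the groups, described above, already fixed this outcome. The ratio and its test therefore add no support to those differences.

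Fkbp5, a co-chaperone that lowers the hormone affinity of the receptor and is itself induced by glucocorticoids, was moderately higher in antagomiR cells. It is listed as ENSRNOG00000022523, at chr20:6457216-6541674. Its values were 3.04, 2.81 and 3.11 FPKM in antagomiR libraries against 1.76, 1.71 and 2.57 FPKM in NC libraries, from 260, 266 and 274 fragments in antagomiR libraries against 132, 160 and 195 in NC libraries. The ranges did not overlap, but NC replicate 3 came close to antagomiR replicate 2. The means were 2.99 ± 0.161 FPKM in antagomiR cells and 2.02 ± 0.482 FPKM in NC cells (SD, n = 3 each), a ratio of 1.48.

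The log2 fold change of Fkbp5 was 0.41 ± 0.12 (standard error, 95% interval 0.12 to 0.70, limma adjusted p = 0.0455). Of the 17 alternatives that tested it, 5 called it, with adjusted p from 0.00206 to 0.15. Leaving out NC replicate 3 kept the call, at 0.54 (limma adjusted p = 0.00206), and on recovered fragments with voom at 0.60 (adjusted p = 0.0196). Leaving out any other library ended the call. Without antagomiR replicates 1, 2 and 3 in turn the log2 fold change was 0.40, 0.45 and 0.39 (limma adjusted p = 0.132, 0.0972 and 0.143), and without NC replicates 1 and 2 in turn it was 0.36 and 0.34 (adjusted p = 0.113 and 0.139). NC replicate 3 had 1.48 times the mean Fkbp5 level of NC replicates 1 and 2, and the part of its leukocyte markers in this was not tested.

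Of 15 other chaperones and co-chaperones of the receptor complex, 14 names were analysed and all 14 were tested. In this list 2 rose, 1 fell and 11 were not called, against 17.5% and 9.21% of all tested genes, with a median log2 fold change of 0.16. With quantile normalization 1 rose and 2 fell, where 1413 of the 12024 tested genes rose and 1869 fell. Hspa8, a constitutive heat shock protein that loads client proteins onto HSP90, averaged 662 ± 16.7 FPKM in antagomiR cells and 542 ± 22.2 FPKM in NC cells (log2 fold change 0.29, limma adjusted p = 0.0132). Stip1, the adaptor that joins it to HSP90, averaged 67.0 ± 1.22 and 58.8 ± 1.57 FPKM in antagomiR and NC cells (0.19, limma adjusted p = 0.0256). Hspa4, a nucleotide exchange factor for that heat shock protein, was lower, at 65.7 ± 1.05 FPKM in antagomiR cells and 77.8 ± 3.16 FPKM in NC cells (-0.24, limma adjusted p = 0.0127).

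The HSP90 genes, Hsp90ab1 and Hsp90aa1, were not called, at log2 fold changes of 0.21 and -0.02. Fkbp4, which competes with Fkbp5 for the complex and favours transport of the receptor to the nucleus, was not called either at 29.3 ± 1.36 FPKM in antagomiR cells and 26.1 ± 2.21 FPKM in NC cells (0.16, limma adjusted p = 0.146). Without NC replicate 3, Hsp90ab1 and Fkbp4 were called at 0.27 and 0.23 (limma adjusted p = 0.00479 and 0.0139). The number of chaperones called was 3, but leaving out antagomiR replicates 1, 2 and 3 gave 0, 1 and 0, and leaving out NC replicates 2 and 3 gave 1 and 7. Over all tested genes the calls without these libraries numbered 2033, 2000, 1883, 2148 and 4862, in the same order. Of 18 receptor coregulators, all tested, 0 rose and 1 fell by limma, against 17.5% and 9.21% of all tested genes. At an unadjusted p under 0.05 the count was 4 and 1, for which no share over all genes was taken. With voom, at an adjusted p under 0.05, 2 coregulators rose and 1 fell, where 2343 of the 12024 tested genes rose and 1167 fell. The coregulators called numbered 3 without NC replicate 3 and 2 without NC replicate 1, where 4862 and 2749 of all tested genes were called. No coregulator was called without NC replicate 2 or without any 1 of the antagomiR libraries.

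Sgk1, a kinase that glucocorticoids and mineralocorticoids induce and that promotes sodium transport and cell survival, was the most variable of the genes in NC cells. It is listed as ENSRNOG00000011815, at chr1:22980261-23098283. It had 13.9, 14.5 and 14.1 FPKM in antagomiR libraries against 8.85, 7.30 and 22.2 FPKM in NC libraries. The antagomiR libraries lay close together, with a coefficient of variation of 2.13%, against 64.0% in NC libraries, where replicates 1 and 2 were below and replicate 3 above all antagomiR libraries. The means were 14.2 ± 0.302 FPKM in antagomiR cells and 12.8 ± 8.18 FPKM in NC cells (SD, n = 3 each).

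The log2 fold change of Sgk1 was 0.29 ± 0.35 (standard error, 95% interval -0.53 to 1.12, limma adjusted p = 0.582). Leaving out NC replicate 3 gave a call, at 0.75 ± 0.08 (standard error, limma adjusted p = 0.000349). Without NC replicate 1 or 2 it was 0.13 and 0.0043, and it was not called (limma adjusted p = 0.841 and 0.995). The result for Sgk1 thus rests on NC replicate 3, whose Sgk1 level was 2.75 times the mean of NC replicates 1 and 2 and whose leukocyte markers summed to 807 FPKM. Whether these are linked was not tested.

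Zbtb16 (ENSRNOG00000029980, at chr8:48994566-49177011), which encodes a zinc finger protein strongly induced by glucocorticoids in many human cells, is listed at 0 in all 6 libraries. No fold change can be given for it.

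In antagomiR libraries the levels fell in the order Hsd11b1, Sgk1, Nr3c1, Fkbp5 and Nr3c2, at mean levels of 50.0, 14.2, 12.4, 2.99 and 0.642 FPKM, and the ranges of neighbours in this order did not overlap. In NC libraries the order was Sgk1, Nr3c1, Hsd11b1, Fkbp5 and Nr3c2, at 12.8, 10.1, 5.03, 2.02 and 0.919 FPKM. There the ranges of Sgk1 and Nr3c1 overlapped, as the Sgk1 values of NC replicates 1 and 2 lay below every Nr3c1 value and that of replicate 3 above. Hsd11b1 was thus the most abundant of the 5 in antagomiR cells and the third in NC cells.

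A further 39 genes known from textbooks and other tissues as induced by glucocorticoids were described, of which 38 names were analysed and 30 tested. Of these 14 rose, 8 fell and 8 were not called, against 17.5% and 9.21% of all tested genes, and the median log2 fold change was 0.23 against 0.06. The list therefore moved in both directions. Without NC replicate 3 the counts were 15 and 9, with quantile normalization 13 and 10, and with median-ratio scaling 12 and 9. Over all 12024 tested genes, 3185 rose and 1677 fell without NC replicate 3. With quantile normalization the counts over all genes were 1413 and 1869, and with median-ratio scaling 1576 and 1484. The total of 22 called was lower on leaving out some libraries, and lowest, at 14, without antagomiR replicate 1, where calls over all genes numbered 2033.

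**Figure D3:**
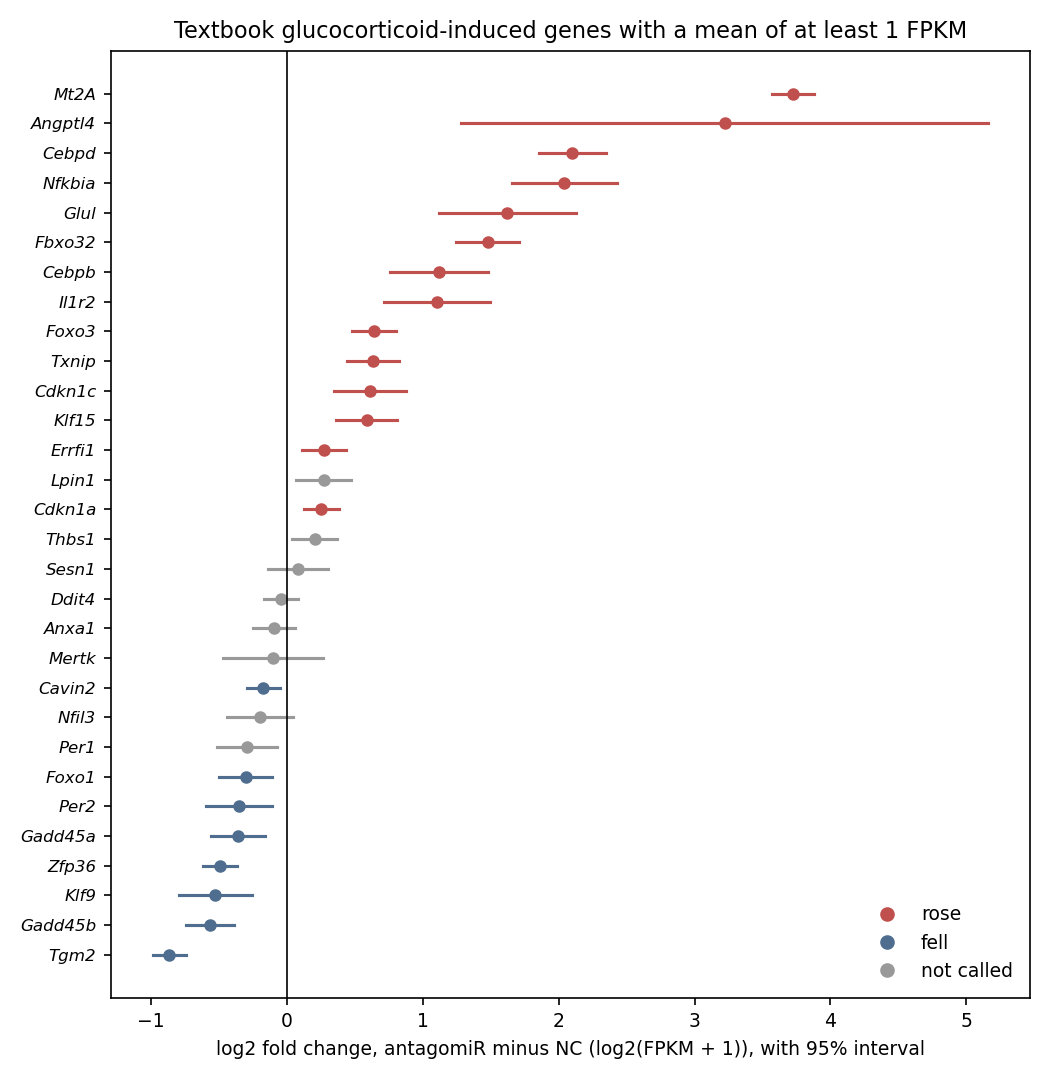
Log2 fold change, antagomiR minus NC (horizontal axis, log2(FPKM + 1) scale, with the 95% interval as a line) of the 30 tested genes of the glucocorticoid-induced list, one per row, by size. Red genes rose, blue genes fell and grey genes were not called at a limma adjusted p under 0.05. Mt2A and Angptl4 lie furthest up and Tgm2 furthest down, and Angptl4 has the widest interval.

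Mt2A, a metallothionein that binds zinc and copper, had the largest difference of the list at 112 ± 8.35 FPKM in antagomiR cells and 7.58 ± 0.218 FPKM in NC cells (SD, n = 3 each, log2 fold change 3.72, limma adjusted p = 7.25e-07). NC replicate 3 did not stand apart here, at 7.79 FPKM against 7.36 and 7.59 FPKM in NC replicates 1 and 2. Mt1, another metallothionein of the list, was under the filter and not tested. It averaged 0.388 ± 0.192 FPKM in antagomiR cells and 0.798 ± 0.603 FPKM in NC cells, with overlapping ranges. Angptl4, a secreted inhibitor of lipoprotein lipase, had 30.9, 21.0 and 25.3 FPKM in antagomiR libraries against 0.225, 0.475 and 11.6 FPKM in NC libraries. Its log2 fold change of 3.22 ± 0.82 (standard error, limma adjusted p = 0.0267) became 4.30 without NC replicate 3 (limma adjusted p = 2.06e-06).

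Cebpd, a transcription factor of the acute phase response, averaged 115 ± 2.29 FPKM in antagomiR cells and 26.4 ± 4.31 FPKM in NC cells (2.10, limma adjusted p = 4.46e-05). Other genes that rose were Nfkbia, which encodes an inhibitor of NF-kappaB and is also induced by NF-kappaB itself, at a log2 fold change of 2.04, Glul, glutamine synthetase, at 1.62, and Fbxo32, a muscle ubiquitin ligase, at 1.48. Inflammatory signals also induce Cebpb, which rose by 1.12, and Il1r2, the decoy receptor for interleukin-1, which rose by 1.10. Klf15 (0.59), Foxo3 (0.64), Txnip (0.64), Cdkn1c (0.61), Errfi1 (0.27) and Cdkn1a (0.25) rose as well. Cdkn1c, at a mean of 0.738 FPKM in NC cells, was tested only through its high antagomiR values.

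Of the genes that fell, Tgm2, a transglutaminase that cross-links matrix proteins, averaged 22.2 ± 0.594 FPKM in antagomiR cells and 41.2 ± 1.47 FPKM in NC cells (-0.87, limma adjusted p = 8.47e-05). Gadd45b, a stress response gene, averaged 53.7 ± 1.10 and 80.3 ± 7.89 FPKM in antagomiR and NC cells (-0.57, limma adjusted p = 0.00188). Klf9, a transcription factor induced by glucocorticoids in many tissues, averaged 14.8 ± 1.34 FPKM in antagomiR cells and 21.8 ± 3.33 FPKM in NC cells (-0.53, limma adjusted p = 0.0146). Zfp36, Gadd45a, Per2, Foxo1 and Cavin2 also fell, by 0.49, 0.36, 0.35, 0.30 and 0.17 on the log2 scale.

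Per1, a clock gene with well-studied glucocorticoid response elements, had 3.97, 4.28 and 4.28 FPKM in antagomiR libraries against 6.12, 5.22 and 4.73 FPKM in NC libraries. The ranges did not overlap, and the log2 fold change of -0.29 was not called (limma adjusted p = 0.0594), while without NC replicate 3 it was, at -0.36 (adjusted p = 0.0122). Ddit4, a brake on mTOR signalling, had nearly equal levels of 26.4 ± 1.24 FPKM in antagomiR cells and 27.1 ± 0.419 FPKM in NC cells (-0.04, limma adjusted p = 0.623). Anxa1, an anti-inflammatory phospholipid-binding protein, was not called at 166 ± 5.96 FPKM in antagomiR cells and 178 ± 12.2 FPKM in NC cells (-0.10, limma adjusted p = 0.324). The liver genes Tat and Igfbp1 are listed at 0 in every library.

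A list of 17 other genes of mineralocorticoid signalling and of the kinase pathway of Sgk1 had 16 names analysed and 13 tested, of which 1 rose, 4 fell and 8 were not called, where 17.5% of all tested genes rose and 9.21% fell. The gene that rose was Lcn2, lipocalin 2, which binds bacterial siderophores and is also a neutrophil product and an acute phase protein. It averaged 57.0 ± 6.66 FPKM in antagomiR cells and 0.122 ± 0.0734 FPKM in NC cells (log2 fold change 5.69, limma adjusted p = 7.25e-07). Lcn2 was tested only through its high antagomiR values.

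Atp1b1, a subunit of the sodium pump, averaged 22.1 ± 1.45 and 33.9 ± 1.67 FPKM in antagomiR and NC cells (-0.59, limma adjusted p = 0.000912), and Ndrg2 averaged 14.2 ± 1.56 FPKM in antagomiR cells and 19.7 ± 1.03 FPKM in NC cells (-0.45, limma adjusted p = 0.0085). Edn1, endothelin 1, fell by 0.42 on the log2 scale. Ndrg1, a substrate that Sgk1 phosphorylates, had 7.92, 6.87 and 7.06 FPKM in antagomiR libraries against 2.14, 2.22 and 6.79 FPKM in NC libraries. As for Sgk1, NC replicate 3 stood above the other controls, here just below the lowest antagomiR library. Ndrg1 was not called (0.95, limma adjusted p = 0.0771), and without NC replicate 3 it was, at 1.38 (adjusted p = 1.8e-05). Without NC replicate 3 the list had 3 genes that rose and 5 that fell, where 3185 of the 12024 tested genes rose and 1677 fell.

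Close relatives of the 7 genes were described to see whether whole families moved. Of 24 listed, 23 names were analysed and 18 tested, with 3 that rose, 6 that fell and 9 not called, beside 17.5% and 9.21% of all tested genes. Without NC replicate 3 the count was 7 and 6, where 3185 of the 12024 tested genes rose and 1677 fell. Leaving out any 1 of the other 5 libraries lowered the total of 9 to between 4 and 6, and calls over all genes to between 1883 and 2749. Bcl6, a zinc finger repressor related to Zbtb16, averaged 13.0 ± 0.597 FPKM in antagomiR cells and 7.04 ± 0.104 FPKM in NC cells (log2 fold change 0.80, limma adjusted p = 0.000186). Zbtb20 averaged 1.84 ± 0.257 and 2.73 ± 0.226 FPKM in antagomiR and NC cells (-0.40, limma adjusted p = 0.0248).

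Relatives of Tsc22d3 were lower in antagomiR cells where called. Tsc22d2 averaged 7.22 ± 0.309 FPKM in antagomiR cells and 12.6 ± 1.14 FPKM in NC cells (-0.73, limma adjusted p = 0.00078), and Tsc22d1 fell by 0.33 on the log2 scale (limma adjusted p = 0.00747). Tsc22d4 was not called at 43.5 ± 0.508 FPKM in antagomiR cells and 40.2 ± 2.88 FPKM in NC cells (0.11, limma adjusted p = 0.222). Among relatives of Fkbp5 and Hsd11b1, Fkbp7, a chaperone of the endoplasmic reticulum, averaged 49.4 ± 2.76 FPKM in antagomiR cells and 41.3 ± 1.83 FPKM in NC cells (0.25, limma adjusted p = 0.0231). Fkbp14, of the same compartment, averaged 32.8 ± 0.224 and 42.3 ± 4.98 FPKM in antagomiR and NC cells (-0.35, limma adjusted p = 0.0195), and Hsd17b11, a steroid and lipid dehydrogenase, 35.6 ± 1.42 FPKM in antagomiR cells and 25.9 ± 1.78 FPKM in NC cells (0.44, limma adjusted p = 0.003). Sgk3 was not called (0.27, limma adjusted p = 0.0518). Leaving out NC replicate 3 brought calls for Tsc22d4 at 0.16 (adjusted p = 0.0282) and Sgk3 at 0.31 (adjusted p = 0.0221). Sgk2 is listed at 0 in every library.

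For each tested gene, other tested genes with a most similar pattern were found by Pearson's r of log2(FPKM + 1) over the 6 libraries, given as a description of points that fall in 2 groups. Those most like Hsd11b1 were Rassf4 (r = 0.9995, 203 FPKM in antagomiR cells against 116 in NC cells) and Ets2 (r = 0.9994, 11.6 against 3.85 FPKM). Those most like Nr3c1 were Prelp, a matrix proteoglycan (r = 0.9988), and Gprc5b (r = 0.9981), both lowest in NC replicate 3. Those most like Fkbp5 were Myd88, an adaptor of Toll-like receptors (r = 0.9966), and Madd (r = 0.9959). For Sgk1, Slc4a5 is given (r = 0.9951), for which NC replicate 3 was the highest library and NC replicates 1 and 2 the lowest.

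Promoter windows of 250 bases before to 50 after each start site, from RefSeq in GRCr8, were searched on both strands for the palindromic glucocorticoid response element in its strict form, GAACA and TGTTC with 3 bases of any kind between them, and for a single arm with 1 more base, AGAACA or TGTTCT. A single arm overlaps the palindrome where that is flanked by such a base. Among 33469 windows 0.0508% held the palindrome and 20.7% a single arm. Windows were matched for 4 of the 7 genes, Sgk1, Nr3c1, Fkbp5 and Tsc22d3, 9 windows in all, and none held either motif. Of the 39 induced genes 32 were matched, 1 held the palindrome (Trim63, a muscle ubiquitin ligase) and 3 a single arm (Trim63, Lpin1 and Cd163). The stretch of Trim63 is shown because it was the only palindrome found, on the plus strand at chr5:151817009-151817037 in GRCr8, 219 bases before the start site, with the motif in capitals.
Trim63: ctggctctGAACAATCTGTTCttgtttac
Trim63 had 0.780, 0.596 and 0.642 FPKM in antagomiR libraries against 0.787, 0.467 and 0.305 FPKM in NC libraries. The ranges overlapped, and the gene was under the filter and not tested. A match is a description and not a binding site, and no match says only that these letters are not in these windows.

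**Figure D4:**
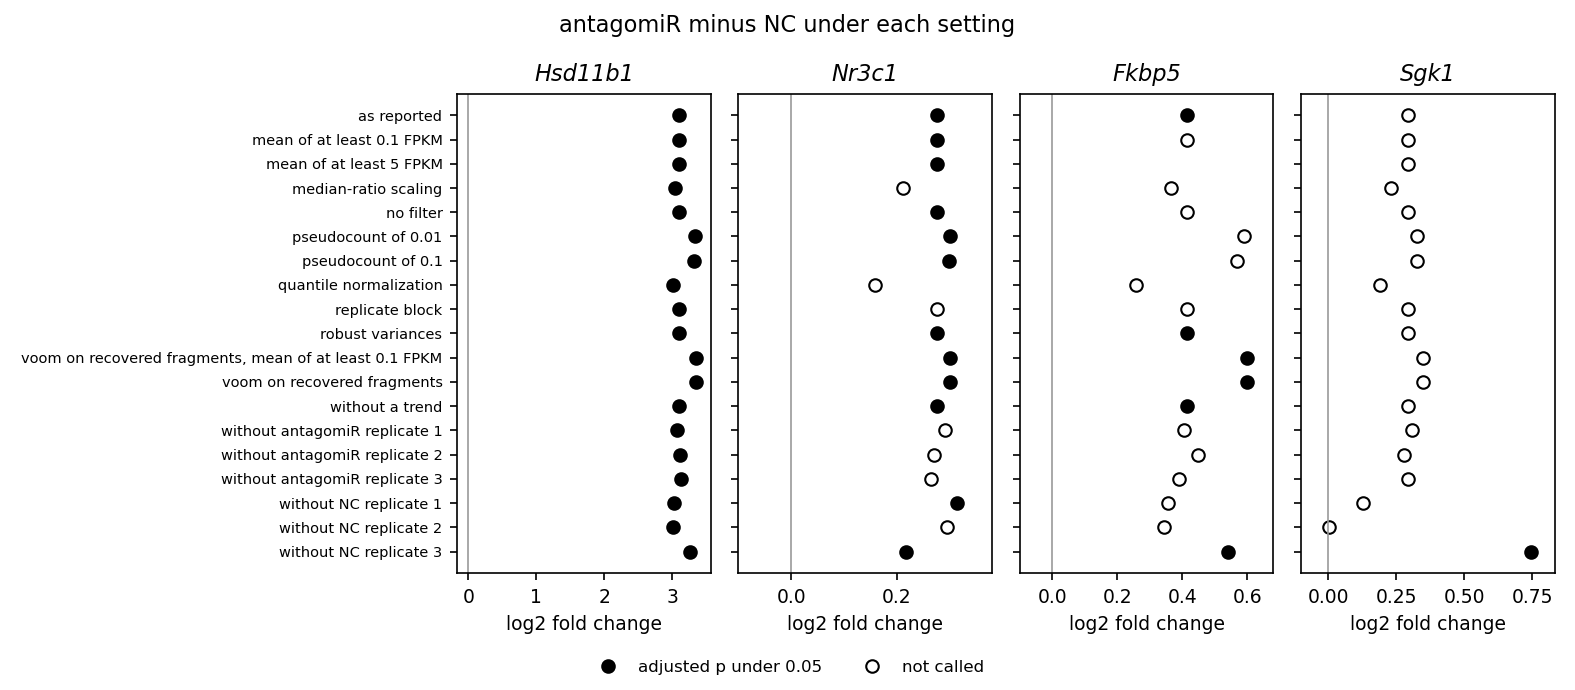
Log2 fold change, antagomiR minus NC (horizontal axis, a separate scale for each gene), of the 4 tested genes as reported and under each alternative (rows). Filled points have an adjusted p under 0.05 and open points do not. Hsd11b1 is filled in every row, while Sgk1 is filled only without NC replicate 3, at 0.75.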

How the data were processed

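The authors deposited FPKM per gene and library, with gene symbols and coordinates. Tools named in the submitters' processing notes are HISAT2, HTSeq, edgeR, cutadapt and FastQC, with the build mRatBN7.2. Neither versions nor the strand setting were given in the sources used here. Per the labels' protocols a NuGEN Ovation kit gave the cDNA, read as pairs of 150 bp. Without a strand setting, overlapping and antisense genes cannot be told apart. FPKM values were whole fragments over length and depth: with library totals from features under 400 bp, all 6 values came out whole within 0.01 fragments for 100% of 20134 genes above 0, and 0 columns of values lacked a sample.

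Genes averaging 1 FPKM or more were tested by limma 3.58.1 (R 4.3.3; lmFit, eBayes with a trend) on log2(FPKM + 1), two-sided, Benjamini-Hochberg adjusted over 12024 genes, called at adjusted p under 0.05, with no replicate block. Scripts were tested on simulated data. The 7 genes and the lists were chosen with earlier results of these data known. Named genes are the 7, up to 3 called genes a direction with the largest fold change from each of 6 lists, the 2 most alike genes, and each marker list's most abundant gene; other named list members were chosen after their values were seen, and 3 genes that the rule names are not reported here. Alternatives are other pseudocounts, filters and scalings, a block, variance settings, voom on recovered fragments (with a filter of 0.1 FPKM added after seeing the data) and leaving out each library.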

Additional observations from a re-analysis of the deposited data

How the results depend on the processing

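The log2 fold changes of Hsd11b1, Nr3c1 and Sgk1 kept their sign in the 18 alternatives run for each, that of Fkbp5 in 17 and that of Nr3c2 in 3. The balance of calls over all genes turned with quantile normalization, to 1413 that rose and 1869 that fell, against 2109 and 1107 as reported. Hsd11b1 was called in all 18, and leaving out 1 library gave log2 fold changes of 3.01 to 3.26. The number of the 4 tested genes called, 3 as reported, was 1 with median-ratio scaling, with quantile normalization and with the replicate block, and 1 to 4 on leaving out 1 library. Nr3c1 fell short at 0.21 with median-ratio scaling (adjusted p = 0.0612), at 0.16 with quantile normalization (adjusted p = 0.131) and at 0.28 with the block (adjusted p = 0.0682), and leaving out 1 library gave 0.22 to 0.31. Fkbp5 fell short at 0.41 with a filter of 0.1 FPKM (adjusted p = 0.0536), with no filter (adjusted p = 0.0879) and with the block (adjusted p = 0.0576), at 0.37 with median-ratio scaling (adjusted p = 0.0688), at 0.26 with quantile normalization (adjusted p = 0.15), and at 0.59 and 0.57 with pseudocounts of 0.01 and 0.1 (adjusted p = 0.051 and 0.0503). Leaving out 1 library gave 0.34 to 0.54 for Fkbp5 and 0.0043 to 0.75 for Sgk1. A mean of at least 5 FPKM left Fkbp5 untested. Nr3c2 was -0.22 without a filter and -0.50 with voom on recovered fragments.

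Calls over all genes, 3216 as reported, ran from 1883 to 4862 on leaving out 1 library. The ranges were 3 to 5 for steroid metabolism, 0 to 7 for chaperones, 0 to 3 for coregulators, 14 to 24 for induced genes, 5 to 8 for the mineralocorticoid and kinase list and 4 to 13 for relatives. Coregulators called, 1 as reported, numbered 2 with quantile normalization and with robust variances and 3 with either voom fit. Over all genes the calls were 3282 with quantile normalization, 3222 with robust variances, and 3510 and 3900 with voom at filters of 1 and 0.1 FPKM.

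Libraries with equal replicate numbers were not more alike than others. The correlation of deviations from the group means was -0.16, -0.06 and -0.04 for equal numbers and -0.06 to 0.13 for unequal ones. The labels do not say whether equal numbers share a preparation, and so few libraries cannot settle it. With the replicate block the calls numbered 2380 over all genes, 0 among chaperones and 5 among relatives. Depth limits Nr3c2, Hsd11b2 and other genes under 1 FPKM, and NC replicate 3 was at 2.75, 1.51 and 1.48 times the mean of NC replicates 1 and 2 for Sgk1, Hsd11b1 and Fkbp5.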
